A study of Mus musculus with 3 samples.

Results

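The genes described here encode the chaperones that fold proteins inside mitochondria and the proteases that degrade them there. The 10 members, of 21887 protein-coding genes on the nuclear chromosomes, were chosen by name from this class with earlier results of these peak lists known. Peaks were assigned to a member by position, where a peak overlapped the RefSeq gene span or the 20 kb on either side, here called its window. By role, Hspa9 and Dnaja3 belong to the mitochondrial Hsp70 machine, Hspd1 and Hspe1 form the chaperonin, and Trap1 is the mitochondrial Hsp90. Lonp1, Clpp, Clpx, Yme1l1 and Spg7 belong to the ATP-dependent proteases.

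The data are chromatin immunoprecipitation sequencing (ChIP-seq) peak lists of ATF4 and CEBPG from wild-type C57BL/6 mouse embryonic fibroblasts. The primary cells were isolated at E13.5, plated for 24 hours and then held in amino acid deprived (AAD) medium for 3 hours. Each peak list used here came from 1 library, the ATF4 list with a commercial antibody and the CEBPG list with an antiserum to the protein's C-terminus made by the submitters. Another library, with a GFP antibody, was not analysed here, and all 3 libraries were from deprived cells, so no value below compares deprived with fed cells. The labelled cell type could not be checked against marker genes, since peak lists hold no expression values.

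Newly imported mitochondrial proteins are pulled into the matrix and folded by Hsp70, passed on to the Hsp60-Hsp10 chaperonin where needed, and removed by AAA+ proteases when they stay misfolded. ATF4 is the transcription factor made when translation is restrained by amino acid lack or by mitochondrial stress. CEBPG is a C/EBP family protein that lacks the activation domain of its relatives and forms heterodimers with ATF4. The induction of mitochondrial chaperone and protease genes under mitochondrial stress is known as the mitochondrial unfolded protein response, and ATF4, ATF5 and CHOP are the factors most often linked to it in mammals.

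Hspa9 was the 1 member where both factors had peaks, and they overlapped. The other members with a CEBPG peak had no ATF4 peak, and Trap1 had ATF4 peaks with no CEBPG peak. In all, 9 of the 10 windows held a CEBPG peak, as did 43.7% of all protein-coding genes by the same rule, and 2 of 10 held an ATF4 peak, as did 7.44% of all genes. Since the members were chosen with these lists known, the counts are descriptions and were not tested. Counting the peaks shared by the neighbours Hspd1 and Hspe1 once, the windows held 17 CEBPG peaks and 5 ATF4 peaks. Of these, 8 CEBPG peaks and 3 ATF4 peaks belonged to Hspa9 alone.

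**Figure D1:**
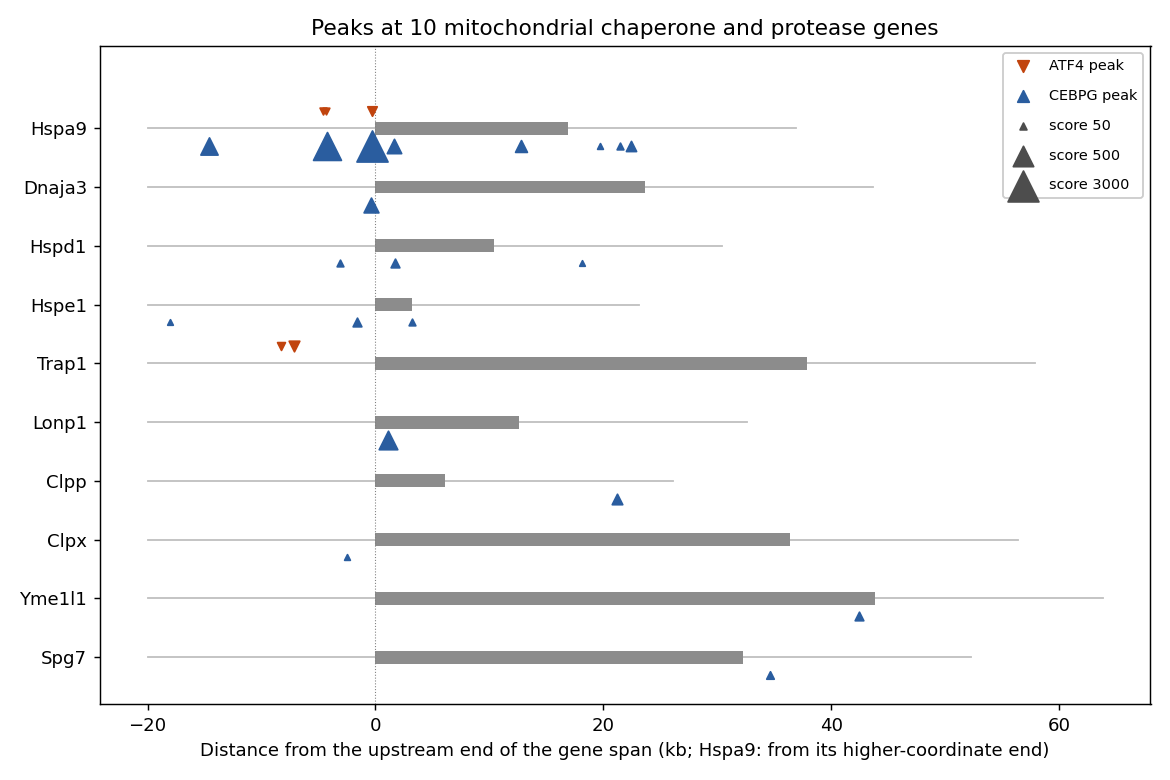
Peaks in the windows of the 10 genes, drawn by distance (kb) from the upstream end of each gene span (Hspa9 from its higher-coordinate end). Grey bars are gene spans, thin lines the 20 kb on either side, and triangles are ATF4 (pointing down) and CEBPG (pointing up) peaks sized by score; the largest triangles are the 3100 and 1797.63 CEBPG peaks of Hspa9.

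A peak's score is the authors' own value, written at the end of its name. It starts at about 40, and it looks like the multiple of a negative log10 p-value that the peak caller MACS writes, although no header says so. The scores of separate lists are not on a common footing. The ATF4 list holds 2642 peaks with a median score of 45.9, and the CEBPG list holds 25419 with a median of 47.2. No read counts were in the files, so the depth behind the scores is unknown. With 1 library per antibody no score has a replicate error.

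Hspa9 encodes mortalin, the matrix Hsp70 that also drives import through the inner membrane. Its span lies on chromosome 18 from 34937414 to 34954351 (mm10). The top CEBPG peak, at 34954308 to 34954980, scored 3100, a value shared by 38 peaks of the list and exceeded by 4 others. It crossed the higher-coordinate end of the gene, with its centre 293 bp beyond it. An ATF4 peak at 34954534 to 34954844 (score 78.09) lay wholly within this CEBPG peak, and the centres were 45 bp apart. The sources used here give no start or strand for this gene, so whether this end is its promoter could not be read from them.

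A second CEBPG peak beyond the same end of Hspa9 scored 1797.63 and ran from 34958265 to 34958965, with its centre 4264 bp from the span. It carried 2 ATF4 peaks. The first, at 34958599 to 34958801, scored 47.92 and lay within it. The other, at 34958862 to 34959126, scored 49.9 and shared 104 bp with it. In the whole CEBPG list, 401 peaks overlapped an ATF4 peak and 3 of them overlapped 2 or more. Hspa9 was the protein-coding gene nearest to all 3 ATF4 peaks and to both of these CEBPG peaks.

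The remaining 6 CEBPG peaks of the Hspa9 window had no ATF4 peak. Inside the gene lay peaks of 178.35 (centre 1670 bp from the higher end) and 116.73 (4164 bp from the lower end). A peak of 291.0 lay 14.6 kb beyond the higher end. Beyond the lower end were 3 weaker peaks of 88.09, 48.79 and 41.52, all nearer to Etf1, which encodes a translation termination factor, than to Hspa9. The overlapping pairs were thus all on one side of the gene. By number, 3 or more ATF4 peaks in a window were found at 0.238% of all genes, 8 or more CEBPG peaks at 0.914%, and a CEBPG score of 3100 or more at 0.201%. These cut-offs are the values of Hspa9 itself, so the shares only describe where it stands. An ATF4 peak on a CEBPG peak was in the window of 1.78% of genes.

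The CEBPG score of Hspa9 stood at the top of its list and the ATF4 score did not. The ATF4 peak of 78.09 ranked 193 of 2642. Of the 42 CEBPG peaks at 3100 or above, 40 overlapped an ATF4 peak, with ATF4 scores from 41.61 to 841.75 and a median of 164. At 35 of those 40 the ATF4 score was higher than at Hspa9, and at 4 it was lower. Outside the window, the next ATF4 peak lay 847 kb away.

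**Figure D2:**
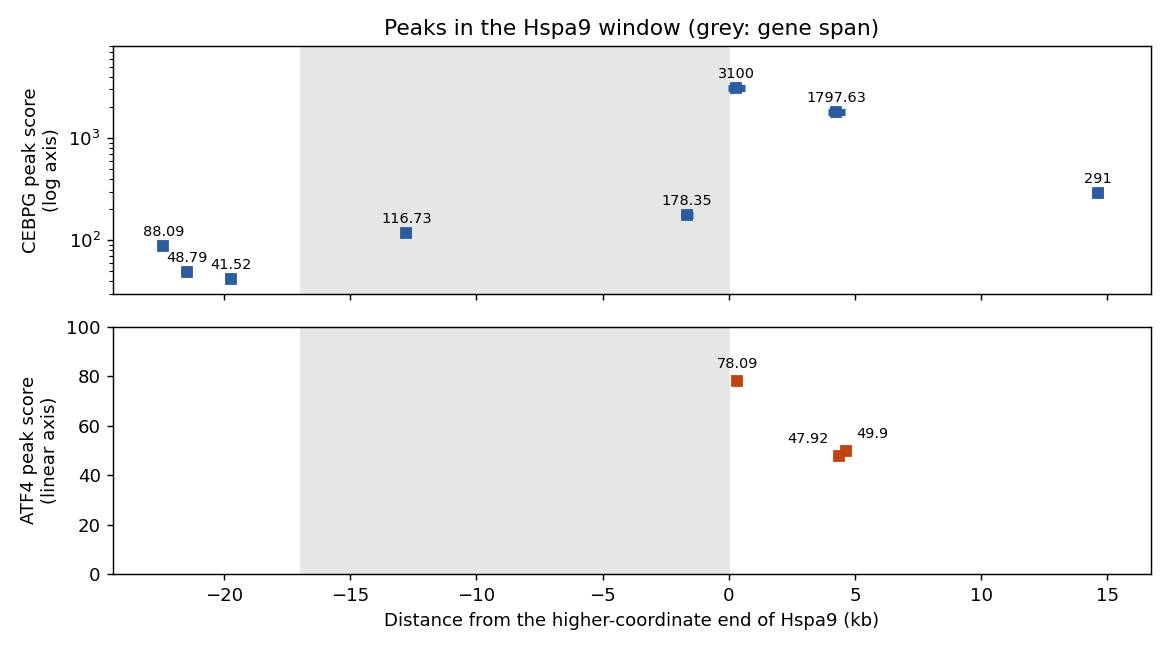
Scores of the peaks in the Hspa9 window against distance (kb) from the higher-coordinate end of the gene, CEBPG above on a log axis and ATF4 below on a linear axis. Each square is 1 peak with its score, and the shaded band is the gene span. The 3 ATF4 peaks sit over the 2 strongest CEBPG peaks.

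Of the other members, Lonp1 and Dnaja3 had the strongest CEBPG peaks, each a single peak close to the gene's start. With Hspa9, these were the 3 of 10 members with a CEBPG score of 100 or more, against 10.9% of all genes. A CEBPG peak within 1 kb of either gene end was found at Hspa9, Dnaja3, Lonp1 and Hspe1, 4 of 10 members, and at 5.56% of all genes.

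Dnaja3 encodes the J-domain cochaperone that stimulates mortalin, also known as Tid1. The gene runs on the plus strand of chromosome 16 from 4684070 to 4707695. Its one CEBPG peak, at 4683567 to 4683879, scored 193.63 and was centred 347 bp upstream of the start. Of 642 CEBPG peaks with scores from 0.8 to 1.25 times this value, 21 overlapped an ATF4 peak (3.27%, 95% Wilson interval 2.15 to 4.95%, counting error only). The nearest ATF4 peak was 598 kb away. Among the 9 members in the RefSeq promoter table (GRCm38.p6), which gives 250 bases before to 50 after a start, Dnaja3 alone had a promoter reached by a CEBPG peak. Over the whole table CEBPG peaks reached 1.25% of 32851 promoters and ATF4 peaks 0.146%. The 250 bases before the start, chr16:4683820-4684069 on the plus strand, are shown because the peak covers their first 60 bases, given in capitals.
Dnaja3: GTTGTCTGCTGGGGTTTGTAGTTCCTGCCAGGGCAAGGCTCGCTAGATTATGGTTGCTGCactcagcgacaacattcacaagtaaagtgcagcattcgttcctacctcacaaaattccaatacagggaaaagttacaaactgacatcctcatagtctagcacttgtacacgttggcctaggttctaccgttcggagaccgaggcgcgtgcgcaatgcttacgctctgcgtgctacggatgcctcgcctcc
The rest of the peak extends upstream of this window. None of the printed bases match the ATF4-C/EBP composite TGATGNAA or the C/EBP palindrome TTGCGCAA on either strand. One CCAAT box lies 134 bases before the start, outside the capitals.

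Lonp1 encodes the main protease of the mitochondrial matrix, which clears oxidised and misfolded proteins. It lies on the minus strand of chromosome 17 from 56614297 to 56626903. Its one CEBPG peak, at 56625584 to 56626088, scored 364.8 and was centred 1067 bp downstream of the start, inside the gene. This was rank 945 of 25419. Of 453 CEBPG peaks of like score (0.8 to 1.25 times), 32 overlapped an ATF4 peak (7.06%, 95% Wilson interval 5.05 to 9.8%). At Lonp1 none did, and the nearest ATF4 peak lay 1019 kb from the gene. The next CEBPG peak lay 348 kb from it. At these scores a CEBPG peak without an ATF4 peak was the usual case in the list.

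Hspd1 and Hspe1 encode Hsp60 and Hsp10, the barrel and the lid of the chaperonin. They lie head to head on chromosome 1 and overlap, Hspd1 on the minus strand (55077833 to 55088243) and Hspe1 on the plus strand (55088148 to 55091317). Both windows held the same 3 CEBPG peaks, all weak. The highest, 68.53, at 55086449 to 55086661, lay inside Hspd1, 1377 bp downstream of its nearer listed start. A peak of 48.42 crossed the far end of Hspe1, and one of 40.15 lay inside the neighbour Coq10b, a coenzyme Q gene. Neither factor had a peak over the starts of the pair, and the nearest ATF4 peak was 322 kb from Hspe1.

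A stretch between the Hspe1 start (55088148) and 1 of the 2 listed Hspd1 starts (55087932) is shown because it holds a heat shock element and no peak. It lies downstream of the other Hspd1 start (55088243), whose promoter entry does not hold it. The element is the site of HSF1, the regulator of the cytosolic heat shock response. The core GAANNTTC was found in the promoters of Hspd1 and Hspe1, through the same bases, and in 7.86% of all promoters on either strand. Read more widely, these bases hold 4 units alternating TTC and GAA, each 2 bases apart. This longer form, looked for after the bases were seen, occurred in 5 of 32851 promoter entries, those of Hspd1, Hspe1, Chordc1, Arpc2 and Fam149a. The stretch is chr1:55088053-55088082 on the plus strand, with the units in capitals, and they begin 89 bases before the Hspe1 start.
Hspd1-Hspe1: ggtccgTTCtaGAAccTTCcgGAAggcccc
The gene table names 23 pseudogenes after Hspd1 and 7 after Hspe1, and none of them carried a peak of either list. The sources used here do not say how reads of 36 bp with several matches were placed, and its part in the low scores of this pair was not tested.

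Trap1 encodes the mitochondrial Hsp90. It was the member with the highest ATF4 score and the only one with no CEBPG peak in its window. ATF4 peaks scored 94.62 (chromosome 16, 4084796 to 4085134) and 59.19 (4086080 to 4086201), with centres 1175 bp apart. They lay 7155 and 8330 bp upstream of the Trap1 start, and both were inside the span of the neighbour Crebbp (4081334 to 4213957), which encodes the acetyltransferase CBP. The CEBPG peak nearest to them, a weak one of 45.73, was 125 kb from the second. The one nearest to the gene itself (110.13) was 106 kb from its other end. Both lists in view, an ATF4 peak without any CEBPG peak in the window was found at 2.17% of genes and 2 or more ATF4 peaks at 0.832%. These conditions were taken from the peaks of Trap1 itself, so the shares only describe where it stands.

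Trap1 and Hspa9 held ATF4 scores of the same order with opposite CEBPG records. Of the 99 ATF4 peaks with scores from 0.8 to 1.25 times 94.62, 68 overlapped a CEBPG peak (68.7%, 95% Wilson interval 59.0 to 77.0%). Of 149 ATF4 peaks scoring as high or higher, 28 had no overlapping CEBPG peak, the Trap1 one among them. Around the 78.09 of Hspa9 the share was 49.5% (100 of 202, 42.7 to 56.3%). The bases upstream of the Trap1 span are shown because they hold the one match to the cAMP response element TGACGTCA among the members, an element that ATF and CREB family dimers bind, and no peak of either list lies on it. The bases are chr16:4077841-4078060, read on the minus strand towards the gene, with the element in capitals. It begins 47 bases before the start.
Trap1: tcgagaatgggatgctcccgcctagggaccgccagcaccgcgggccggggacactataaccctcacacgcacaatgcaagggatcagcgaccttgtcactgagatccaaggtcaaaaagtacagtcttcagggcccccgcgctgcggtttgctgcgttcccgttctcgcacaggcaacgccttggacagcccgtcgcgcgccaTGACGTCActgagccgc
The element was in 1.79% of all promoters and in 2.44% of the 410 promoters under a CEBPG peak.

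Clpp and Clpx encode the peptidase and the AAA+ unfoldase of the matrix protease ClpXP. Neither had a strong peak of its own. The Clpp window (gene on chromosome 17, 56990264 to 56996371, plus strand) held a single CEBPG peak of 92.79 at 57011343 to 57011637. Its centre was 15.1 kb beyond the gene and 202 bp from the start of Gtf2f1, which encodes a subunit of the general transcription factor TFIIF. The Clpx window (gene on chromosome 9, 65294251 to 65330658, plus strand) held a single CEBPG peak of 41.23, centred 2540 bp upstream of the Clpx start. That score is at the foot of the list, with 87.8% of CEBPG peaks at or above it. The nearest ATF4 peak lay 649 kb from Clpp and 1033 kb from Clpx.

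The bases upstream of the Gtf2f1 span are shown because the only peak of the Clpp window lies over them. They are chr17:57011395-57011538, read on the minus strand towards Gtf2f1. All 144 of them lie under the CEBPG peak, and the capitals mark a cAMP response element.
Gtf2f1: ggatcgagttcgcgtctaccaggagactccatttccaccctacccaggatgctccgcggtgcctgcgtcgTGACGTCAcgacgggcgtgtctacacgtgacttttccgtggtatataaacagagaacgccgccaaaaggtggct

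Yme1l1 and Spg7 encode AAA+ proteases of the inner membrane. Yme1l1 faces the intermembrane space, and the Spg7 product, paraplegin, faces the matrix and is the protein lost in a hereditary spastic paraplegia. The single CEBPG peak of Yme1l1 (chromosome 2, 23155442 to 23199260, plus strand) scored 67.25 and lay inside the gene near its far end, 41368 bp from the start. The single CEBPG peak of Spg7 (chromosome 8, 123065508 to 123097760, plus strand) scored 55.63. It lay 2394 bp beyond the far end of Spg7 and 2196 bp from the start of Rpl13, a ribosomal protein gene. Neither peak was near the start of its member.

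Just outside the 20 kb limit, Spg7 would have gained an overlapping pair. An ATF4 peak of 112.55 lay 24.2 kb before its span, on a CEBPG peak of 187.63, nearest to Ankrd11, a chromatin regulator gene. Just inside it, the weak peak in Coq10b (40.15) was centred 18.0 kb from Hspe1, though 7.70 kb from Hspd1, and the peak of Clpp (92.79) was centred 15.1 kb from that gene.

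**Figure D3:**
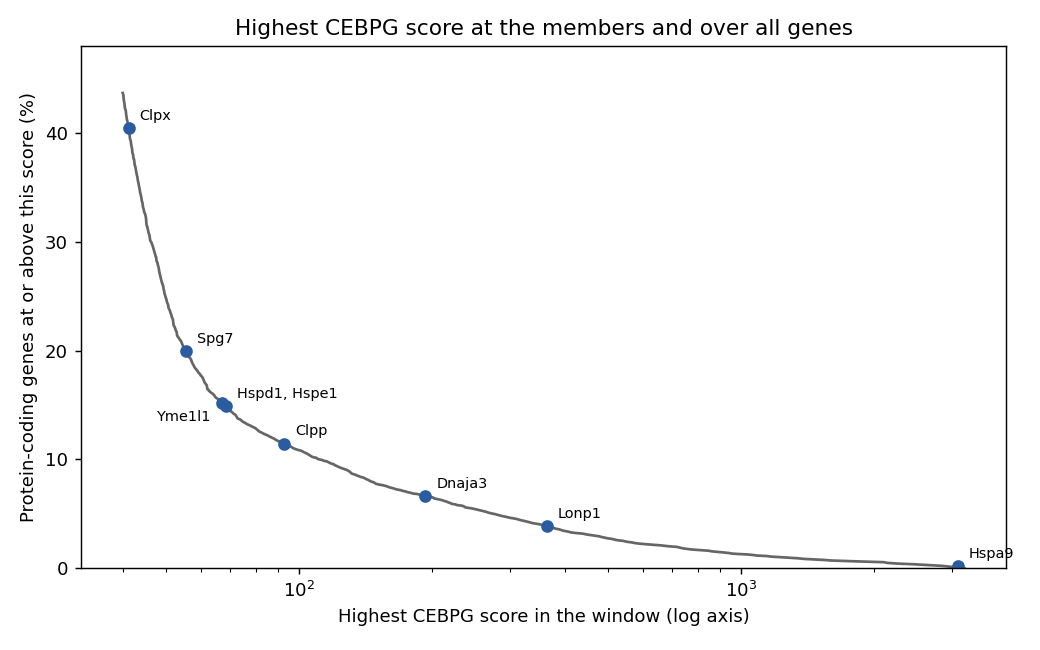
Highest CEBPG score in the window (log axis) against the percent of all 21887 protein-coding genes that reach at least that score. The curve is all genes and the points are the 9 members with a CEBPG peak. Hspa9 is at 0.201%, Lonp1 at 3.86%, Dnaja3 at 6.62% and the other 6 from 11.4% to 40.5%.

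Across the members, the CEBPG scores fell into a wide range with Hspa9 at one end. The highest score in the window was 3100 at Hspa9, 364.8 at Lonp1 and 193.63 at Dnaja3. It was 92.79 at Clpp, 68.53 at Hspd1 and Hspe1, 67.25 at Yme1l1, 55.63 at Spg7 and 41.23 at Clpx. The 9 CEBPG peaks away from Hspa9 had a median score of 67.2. Of all 17 CEBPG peaks, 7 overlapped a member's span and 6 lay nearer to another protein-coding gene than to a member. None of the 5 ATF4 peaks overlapped a member's span, and the 2 of Trap1 lay in another gene.

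The spans of the members ran from 3170 to 43819 bp with a median of 20282 bp, close to the 17169 bp of all genes. Among the 12818 protein-coding genes with spans in the members' range, a restriction added after seeing the data, 36.8% held a CEBPG peak, 4.96% an ATF4 peak and 1.53% an overlapping pair.

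Sequence motifs were read in the members' promoters, whatever their peaks. The ATF4-C/EBP composite TGATGNAA was in 0 of the 10 promoter entries of the 9 members in the table (Hspd1 has 2), against 3.97% of all promoters. It was in 22.2% of the 410 promoters under a CEBPG peak, a group that held only Dnaja3 of the members. The palindrome TTGCGCAA, in 0.183% of all promoters, and TGACGTGG, a site of endoplasmic reticulum stress factors, in 0.676%, were in none of the members' entries. The NF-Y box CCAAT was in 4 entries, those of Clpx, Dnaja3, Yme1l1 and Hspd1, and in 37.4% of all promoters. Both strands were read, and a match here describes letters and not a bound site. The bases under the Hspa9 peaks were not examined.

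Among other genes of mitochondrial protein quality control, CEBPG peaks were mostly weak and overlapping pairs were at 0 genes. Of 13 other chaperones and cochaperones, 6 had a CEBPG peak in the window and 0 an ATF4 peak. The highest CEBPG score was 163.47 at Dnajc11, a cristae-associated J protein, followed by 51.23 at Dnajc15. Next was 49.69 in the window of Bcs1l, a complex III assembly factor, but inside Stk36. Of 18 other proteases and scaffolds, 9 had a CEBPG peak and 1 an ATF4 peak. That was Mipep, the intermediate peptidase, with scores of 44.31 for ATF4 and 44.43 for CEBPG that did not overlap. Immp2l, an inner membrane peptidase, had 15 CEBPG peaks with a top score of 355.62 in a span of 932 kb, Nln reached 78.17 and Metap1d 59.88. Of 18 protein import genes, 8 had a CEBPG peak and 0 an ATF4 peak. The strongest was 238.28 in the window of Chchd4, the import oxidoreductase, but 108 bp from Xpc, and the next were at Tomm22 (122.29, nearest Josd1) and Timm23 (49.89, inside Ncoa4). The 3 lists together held a CEBPG score of 100 or more at 4 genes and no overlapping pair. By list, such a score was at 7.69%, 5.56% and 11.1% of genes, against 10.9% of all genes.

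Chaperones of other compartments had overlapping pairs at 3 genes, and 1.78% of all genes had such a pair. Of all genes, 43.7% had a CEBPG peak and 7.44% an ATF4 peak. In the endoplasmic reticulum list, 8 of 15 genes had a CEBPG peak and 2 an ATF4 peak on it. Hspa5, the endoplasmic reticulum counterpart of Hspa9, had an ATF4 score of 87.43 on a CEBPG peak of 3100, against 78.09 and 3100 at Hspa9. Both CEBPG peaks are among the 38 tied at that value, so their equal scores do not show equal signal. Pdia4, a disulfide isomerase, had 93.03 on 657.98, and Dnajb11 had a CEBPG peak of 126.32 alone. In the cytosolic list 14 of 22 genes had a CEBPG peak and 1 an ATF4 peak, Hsp90aa1, the inducible Hsp90, with 53.1 on 498.6 at 7.2 kb from the gene. Cct4 (129.14, inside Fam161a) and Dnajb6 (110.31) had CEBPG peaks alone. The highest CEBPG score was at an Hsp70 gene among the mitochondrial and the endoplasmic reticulum genes listed. Among the cytosolic genes, which include Hsp70 genes, it was at Hsp90aa1. Hspa9 was chosen with its scores known, and no test of this was made.

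**Figure D4:**
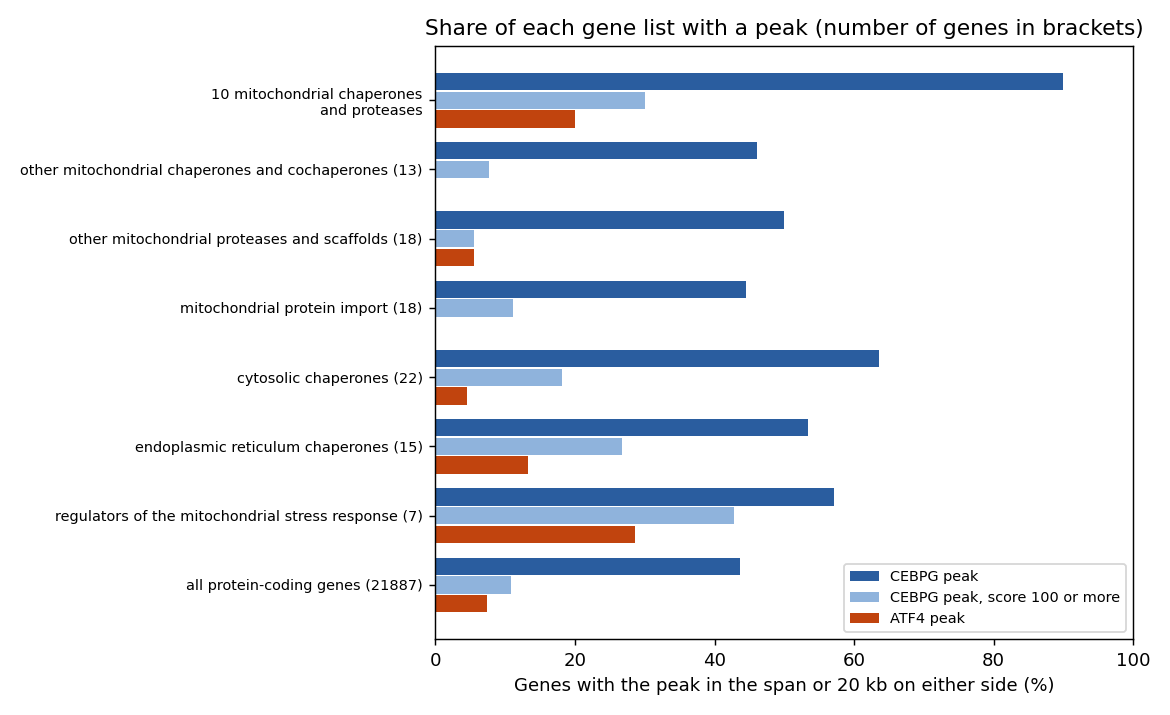
Percent of the genes of each list with a CEBPG peak, a CEBPG peak scoring 100 or more, and an ATF4 peak in the span or the 20 kb on either side, with the number of genes in brackets. The bottom bars are all protein-coding genes (43.7%, 10.9% and 7.44%); the 10 members are 9, 3 and 2 genes, chosen with the lists known.

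Among 7 regulators linked to the mitochondrial stress response, 4 had a CEBPG peak and 2 an ATF4 peak. Of all genes, 43.7% and 7.44% did, and a list of 7 genes is too short to set against these shares. The window of Atf5 held overlapping peaks (145.38 for ATF4, 2765.18 for CEBPG) within the spans of Nup62 and Il4i1b. Cebpb had peaks of 282.46 and 845.58 without overlap, and the top CEBPG peak of the Ddit3 window (885.2) lay inside Mars1.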

How the data were processed

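ChIP-seq peak lists of 1 ATF4 and 1 CEBPG library were used. Per the submitters' processing notes, Trimmomatic, BWA, MACS 1.4.2 and HOMER and the build mm10 were used, with no settings given. The deposited files hold positions and, at the end of each peak name, the authors' score. Pooling of samples and the use of the GFP library as background are not given in the sources used here. Depth is unknown.

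Gene spans came from RefSeq (GRCm38.p6, the same build), and starts, strands and promoter bases from a RefSeq promoter table of that build. All 10 members and 93 genes of 6 other lists matched by symbol, and 9 members had a promoter entry. A peak counted for a gene when it overlapped the span or 20 kb on either side by 1 bp or more, and ATF4 and CEBPG peaks were shared when they overlapped by 1 bp or more. Counts over all 21887 protein-coding genes used the same rule. There is no replicate, so no test between groups was made. Named genes are all members, list genes with an ATF4 peak, the 3 highest CEBPG scores of each list, and nearer neighbours of a member's peak. The members and lists were chosen with earlier results of these data known. Position counting was checked on simulated peaks. Python 3.11.15, pandas 2.3.3 and SciPy 1.17.1 were used.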

Additional observations from a re-analysis of the deposited data

How the results depend on the processing

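Of 49 alternative values of the member counts and of the background shares, 26 stayed within 1.5 times the reported one and 23 did not. No paired analysis was possible because each antibody had 1 library. With a flank of 5 kb, 1 member (Hspa9) kept an ATF4 peak and a pair, against 4.94% and 1.13% of genes. With 50 kb, pairs were at 2 members (Hspa9 and Spg7), against 2.95% of genes. ATF4 peaks were then at 3 members (Hspa9, Trap1 and Spg7), against 12.0% of genes. Over gene spans alone, 0 members had an ATF4 peak, 5 a CEBPG peak and 0 a pair, against 3.94%, 23.4% and 0.804% of genes. With a score minimum of 50, 2 members had an ATF4 peak and 8 a CEBPG peak, against 2.86% and 24.9% of genes. With a minimum of 100, 0 members had an ATF4 peak, 3 a CEBPG peak and 0 a pair, against 0.635%, 10.9% and 0.562% of genes. Where 50% of both peaks had to overlap, 0 members had a pair, against 0.886% of genes. The CEBPG peaks of Hspa9 are wider than the ATF4 peaks on them. The ATF4 peak of 49.9 also shares only 104 of its 265 bp with its CEBPG peak. Counting a peak only for its nearest protein-coding gene left 1 member with an ATF4 peak (Hspa9) and 7 with a CEBPG peak. The share of all genes was not computed under that rule, so these counts cannot be read as an excess. Shares of genes change with window and score minimum by construction. Depth is unknown, so an absent peak does not show absent binding.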
